A study of Mus musculus with 11 samples.

Results

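Fc gamma and paired receptors are surface proteins with which myeloid cells read antibody-coated targets and the surfaces of other cells. The genes described here were picked by symbol: the Fc gamma receptors Fcgr1, Fcgr2b, Fcgr3 and Fcgr4, their signalling adaptor Fcer1g, the paired immunoglobulin-like type 2 receptors Pilra, Pilrb1 and Pilrb2, and the inhibitory receptor Sirpa with its ligand Cd47. All 10 were among the 26061 genes of the deposited table, and all 10 were among the 12486 genes that passed the filter on low values. The cells were BV2, a mouse microglial line immortalised by an oncogene-carrying retrovirus, so that all groups shared that background and came from 1 line. The 4 groups compared were a non-targeting siRNA without LPS (siScr_Ctrl, n = 3), the same siRNA with LPS (siScr_LPS, n = 3), siRNA against Tet2 without LPS (siTet2_Ctrl, n = 3) and siRNA against Tet2 with LPS (siTet2_LPS, n = 2, replicates 2 and 3). Cells grew in 10% serum, were transfected by lipofection, and LPS, the endotoxin of Gram-negative bacteria, was given at 1 µg/ml for 3 h from 48 h after transfection, in 5% serum. The labels do not say whether the untreated cells also moved to 5% serum.

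Activating Fc gamma receptors have no signalling tail of their own and depend on Fcer1g, whose immunoreceptor tyrosine-based activation motif recruits the kinase Syk once antibody-coated targets cluster the receptors. Fcgr2b binds the same complexes but carries an inhibitory motif, so the balance of activating and inhibitory receptors sets the threshold for phagocytosis and cytokine release. The PILR family repeats this logic, with an inhibitory Pilra and activating Pilrb proteins that signal through the adaptor Tyrobp. Sirpa is an inhibitory receptor of phagocytes, and its ligand Cd47 is present on most cells and restrains their uptake. In microglia these receptors are known for their part in the clearance of antibody-bound material and in the sparing of healthy cells.

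The 11 libraries held 8739716 to 23030426 reads on genes, with the fewest in replicate 2 of siTet2_Ctrl and replicate 3 of siScr_Ctrl. That siScr_Ctrl library had reads on 16406 genes, where the other 10 had reads on 12866 to 14180. Replicate 1 of siScr_LPS also stood apart, with a chi-square per degree of freedom of 105 and 94.3 against its 2 partners, which differed from each other by 31.9. Values below are normalised reads, that is, reads per library after the authors' scaling for depth, and differences are on the deposited variance-stabilised log2 scale, where differences of genes with low reads come out smaller than their fold change. The labels do not say that replicates were separate cultures, so p-values measure only the spread between these libraries. In bulk RNA, fewer cells that express a gene and less RNA per cell cannot be told apart. Tet2, the target of the siRNA, had 1988, 2399 and 1827 normalised reads in siScr_Ctrl, 1453, 1988 and 1662 in siTet2_Ctrl, 10405, 16792 and 14762 in siScr_LPS, and 7969 and 9238 in siTet2_LPS. Both untreated groups overlapped in Tet2, and the LPS-treated groups did not. The Tet2 siRNA means were 82.1% of the control mean without LPS and 61.5% with it, and neither difference passed the test (limma, adjusted p = 0.566 and 0.165). Averaged over both treatments, the siRNA difference of Tet2 was -0.48 (SE 0.15, limma adjusted p = 0.0761), which did not pass either.

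As a check of the cell type, 15 genes that mark microglia and macrophages all had reads, led by Cd68 and Csf1r, while the homeostatic microglial genes P2ry12, Tmem119 and Cx3cr1 stayed at or below 149 normalised reads and Sall1 was at 0 in 10 of 11 libraries. The summed level of this marker list was 68809 to 82253 normalised reads in siScr_Ctrl and 71049 to 82714 in siScr_LPS. It was 38469 to 59538 in siTet2_Ctrl and 38736 to 56577 in siTet2_LPS, so that both Tet2 siRNA groups lay below both control siRNA groups. Of the 14 markers tested, 14 had a negative average siRNA difference and 5 fell (median -0.69). Among all genes, 53.7% had a negative average siRNA difference and 2.88% were called lower (median -0.03). Every siRNA comparison below uses libraries with this lower marker level, and its part in the results was not tested. Of markers of other cell types, Kdr had 2219 to 4678 normalised reads with Cldn5 at 0, Mbp had up to 43.8 with Mog at 0, and the neutrophil genes Ly6g and S100a8, Cd79a of B cells, Cd3e and Ncr1 of T and NK cells and Mcpt4 of mast cells were at 0. The other such markers reported here reached at most 15.8 normalised reads.

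Only the promoters of the PILR genes, Fcgr4 and Fcgr1 are printed. They were picked for holding the letters of an interferon-stimulated response element or a STAT site. Size of difference was also a ground, as these genes had the largest ones below, and a link between both was not tested. RefSeq promoter windows of 300 bases around the start (build GRCm38.p6, gene strand, 5′ to 3′) were matched for 9 of 10 members. The 4 motifs searched on both strands were the interferon-stimulated response element (GAAA, any 2 bases, GAAA), a STAT site (TTCNNNGAA), an NF-kB site (GGGA, any 4 bases, CC) and a PU.1 site (GAGGAAGT). Capitals mark the matches, and no match overlapped another in the sequences below.
Pilra chr5:137836229-137836528 (- strand): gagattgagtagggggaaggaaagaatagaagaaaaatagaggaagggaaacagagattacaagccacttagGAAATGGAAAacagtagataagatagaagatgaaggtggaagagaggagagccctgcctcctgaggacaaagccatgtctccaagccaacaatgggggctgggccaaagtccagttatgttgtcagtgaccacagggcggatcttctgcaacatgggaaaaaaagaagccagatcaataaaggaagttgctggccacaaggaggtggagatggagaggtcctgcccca
Pilrb1 chr5:137858000-137858299 (- strand): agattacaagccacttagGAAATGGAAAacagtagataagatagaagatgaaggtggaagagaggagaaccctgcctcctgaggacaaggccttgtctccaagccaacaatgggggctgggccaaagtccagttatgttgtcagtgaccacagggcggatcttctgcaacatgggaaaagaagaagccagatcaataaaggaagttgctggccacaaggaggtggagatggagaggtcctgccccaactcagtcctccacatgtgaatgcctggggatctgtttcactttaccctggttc
Pilrb2 chr5:137871709-137872008 (- strand): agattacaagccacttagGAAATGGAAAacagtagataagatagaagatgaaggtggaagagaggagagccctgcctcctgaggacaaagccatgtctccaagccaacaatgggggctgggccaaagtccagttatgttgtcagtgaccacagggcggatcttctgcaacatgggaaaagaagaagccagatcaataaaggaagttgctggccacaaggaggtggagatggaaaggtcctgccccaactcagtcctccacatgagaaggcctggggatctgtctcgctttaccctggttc
Fcgr4 chr1:171018676-171018975 (+ strand): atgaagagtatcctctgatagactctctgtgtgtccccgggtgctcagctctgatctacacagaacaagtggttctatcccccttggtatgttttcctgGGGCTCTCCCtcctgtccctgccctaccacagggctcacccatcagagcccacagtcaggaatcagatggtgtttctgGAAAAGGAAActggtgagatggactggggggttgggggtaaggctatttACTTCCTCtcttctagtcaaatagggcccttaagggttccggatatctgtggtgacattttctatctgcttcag
Fcgr1 chr3:96293920-96294219 (- strand): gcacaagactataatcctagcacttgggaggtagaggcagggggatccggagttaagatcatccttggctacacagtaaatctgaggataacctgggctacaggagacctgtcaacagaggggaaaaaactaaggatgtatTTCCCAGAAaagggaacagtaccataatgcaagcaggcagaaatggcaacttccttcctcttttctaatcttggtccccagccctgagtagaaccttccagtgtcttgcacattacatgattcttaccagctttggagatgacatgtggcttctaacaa
Pilra, Pilrb1 and Pilrb2 share the match GAAATGGAAA, which begins 178 bases before the start of Pilra and 232 bases before those of Pilrb1 and Pilrb2. Fcgr4 holds GAAAAGGAAA 73 bases before its start and, both on the reverse strand, an NF-kB match (GGGCTCTCCC as printed) 151 bases before it and a PU.1 match (ACTTCCTC as printed) 24 bases before it. Fcgr1 holds the STAT match TTCCCAGAA 109 bases before its start. Among all 32851 promoters of the table, the interferon-stimulated response element letters were found in 3.44%, the STAT letters in 8.3%, the NF-kB letters in 20.7% and the PU.1 letters in 3.2%. NF-kB letters were also found in Fcgr2b (67 bases before the start), Fcgr3 (160 and 151 bases before its 2 listed starts) and Fcer1g (132 and 67 bases before the start). Cd47 matched a promoter in the table with none of these letters in it. The windows of Pilrb1 and Pilrb2 were identical at 292 of 300 bases (97.3%). Pilra had 242 and 244 bases identical to them over 354 aligned columns (68.4% and 68.9%). These columns include gaps, because the stretch shared by the 3 windows lies at a different distance from the start in Pilra. The lower percentages therefore do not measure how far that stretch differs, and the 3 GAAATGGAAA matches all lie in it. These matches describe letters only, and no binding was measured.

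Per kilobase of exon, the untreated control cells ranked the members from the Fc adaptor at the top to the activating PILR genes at the bottom. Fcer1g had 8561 ± 438 normalised reads per kb (SD, n = 3), followed by Fcgr3 at 4954 ± 1084 and Sirpa at 3912 ± 271. A second tier held Fcgr4 at 515 ± 139, Fcgr2b at 421 ± 147, Fcgr1 at 337 ± 46.1 and Cd47 at 260 ± 40.3. Pilra lay at 138 ± 41.8, Pilrb1 at 53.4 ± 11.9 and Pilrb2 at 35.3 ± 3.15. The ranges of neighbours in this order overlapped between Fcgr3 and Sirpa, between Fcgr4 and Fcgr2b, between Fcgr2b and Fcgr1 and between Fcgr1 and Cd47, and were apart for the others. Lengths were merged exons of GENCODE annotation on GRCm38, so the order holds for those models only.

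**Figure D1:**
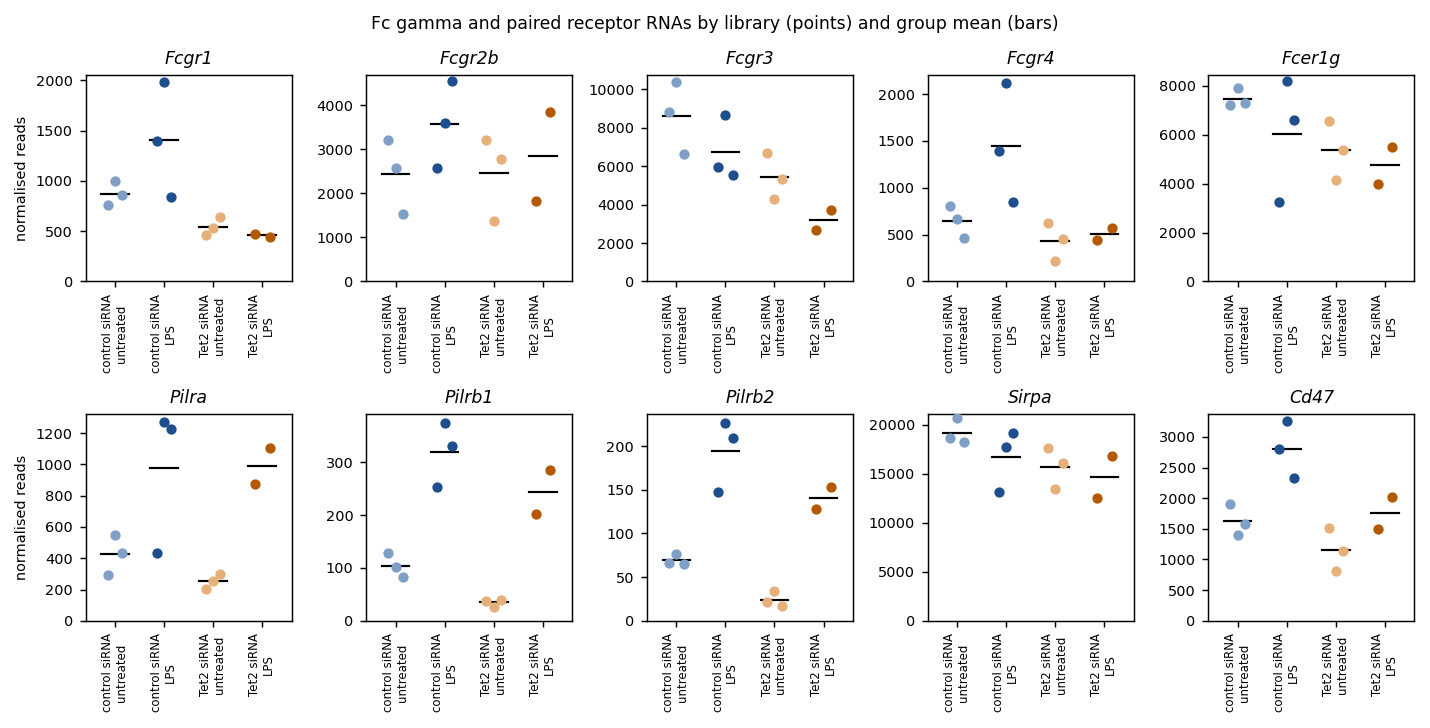
Normalised reads (vertical axis, linear and starting at 0) of each of the 10 genes in the 11 libraries, by siRNA and LPS treatment. Points are libraries and bars are group means. The untreated Tet2 siRNA libraries hold the lowest Pilrb1 and Pilrb2 values, and both LPS-treated Tet2 siRNA libraries lie at 445 to 473 for Fcgr1, below all 3 LPS-treated control libraries.

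Among the activating Fc gamma receptors, Fcgr4 rose with LPS in control siRNA cells, and Fcgr1 and Fcgr3 were lower on average in Tet2 siRNA cells. Fcgr1, the high-affinity receptor for IgG, had 760, 998 and 857 normalised reads in siScr_Ctrl, 1398, 1979 and 835 in siScr_LPS, 460, 533 and 636 in siTet2_Ctrl, and 473 and 445 in siTet2_LPS. Every Tet2 siRNA library lay below every control siRNA library for Fcgr1, while replicate 3 of siScr_LPS fell among the untreated controls. The mean of siTet2_LPS was 32.7% of that of siScr_LPS, and the mean of siTet2_Ctrl was 62.3% of that of siScr_Ctrl. The fitted siRNA difference of Fcgr1 was -0.66 (SE 0.25, adjusted p = 0.412) without LPS and -1.47 (SE 0.28, adjusted p = 0.122) after it. Averaged over both treatments it fell by 1.06 (SE 0.19, adjusted p = 0.0226). After LPS it ranked 18th by p of the 12486 genes. Without replicate 3 of siScr_LPS, the difference after LPS was -1.79 and passed (adjusted p = 0.0325), and the LPS difference in control cells, 0.59 (SE 0.25, adjusted p = 0.113), became 0.92 (adjusted p = 0.00852). The average call of Fcgr1 ended without replicate 2 of siScr_LPS (-0.92, adjusted p = 0.0565) and without replicate 2 of siTet2_LPS (-1.08, adjusted p = 0.18).

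Fcgr3, the low-affinity activating receptor and the most abundant Fc gamma receptor here, had 8797, 10375 and 6628 normalised reads in siScr_Ctrl, 5943, 8677 and 5557 in siScr_LPS, 6670, 4264 and 5317 in siTet2_Ctrl, and 2693 and 3707 in siTet2_LPS. Both siTet2_LPS libraries lay below all others, and the untreated groups overlapped at 1 library each. Fcgr3 fell by 0.86 on average with Tet2 siRNA (SE 0.18, adjusted p = 0.0257). The separate siRNA differences were -0.66 (SE 0.23, adjusted p = 0.398) without LPS and -1.05 (SE 0.26, adjusted p = 0.122) after it. LPS differences were -0.36 (SE 0.23, adjusted p = 0.309) with control siRNA and -0.75 (SE 0.26, adjusted p = 0.093) with Tet2 siRNA, where the groups did not overlap. The average call of Fcgr3 ended when replicate 1 or 2 of siScr_LPS, 2 or 3 of siTet2_Ctrl, or 2 of siTet2_LPS was left out, with fitted values from -0.97 to -0.74 over all settings tried. Of 50-base stretches of the longest protein-coding Fcgr3 transcript, 12.8% also occurred in that of Fcgr2b, and 4.75% the other way round. How reads from such stretches were counted is not given in the sources used here.

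Fcgr4, an activating receptor that binds mouse IgG2a and IgG2b complexes, had 811, 664 and 464 normalised reads in siScr_Ctrl, 1388, 2114 and 851 in siScr_LPS, 620, 216 and 457 in siTet2_Ctrl, and 445 and 570 in siTet2_LPS. All 3 siScr_LPS libraries were above the untreated controls, and both siTet2_LPS libraries lay within the range of siTet2_Ctrl. Fcgr4 rose by 1.07 with LPS in control cells (SE 0.36, adjusted p = 0.0494), and with Tet2 siRNA its LPS difference was 0.32 (SE 0.41, adjusted p = 0.771). The test of the difference between both LPS responses gave -0.75 (SE 0.55, adjusted p = 0.9997), with a 95% interval from -1.93 to 0.43. The siRNA difference of Fcgr4 was -1.38 after LPS (SE 0.41, adjusted p = 0.139), where the groups did not overlap, and -1.0 on average (SE 0.27, adjusted p = 0.0526), neither of which passed. The LPS call lay close to the threshold. It held in 3 of the 11 fits that each left out 1 library, those without replicate 3 of siScr_LPS or without replicate 1 or 2 of siTet2_Ctrl, and was lost in the other 8 (adjusted p up to 0.194).

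The inhibitory receptor Fcgr2b and the adaptor Fcer1g did not pass in any comparison. Fcgr2b had 3206, 2578 and 1527 normalised reads in siScr_Ctrl, 2579, 3603 and 4545 in siScr_LPS, 3215, 1382 and 2774 in siTet2_Ctrl, and 1834 and 3851 in siTet2_LPS. Its groups overlapped in every comparison, with a spread inside groups of 0.41 to 0.75 log2 units (SD). The LPS differences of Fcgr2b were 0.57 (SE 0.37) and 0.20 (SE 0.41), and its siRNA differences were -0.01 (SE 0.37) without LPS and -0.38 (SE 0.41) after it. Fcer1g had 7219, 7922 and 7308 normalised reads in siScr_Ctrl, 3256, 8217 and 6609 in siScr_LPS, 6573, 4152 and 5392 in siTet2_Ctrl, and 3992 and 5517 in siTet2_LPS. All 3 siTet2_Ctrl libraries were below the untreated controls, and replicate 1 of siScr_LPS was the lowest of all 11. The Fcer1g siRNA difference was -0.50 (SE 0.29, adjusted p = 0.515) without LPS and -0.38 (SE 0.22, adjusted p = 0.293) on average. Its LPS difference in control cells, -0.41 (SE 0.29, adjusted p = 0.347), was -0.02 without replicate 1 of siScr_LPS.

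The PILR genes rose with LPS whichever siRNA was present, and Pilrb1 and Pilrb2 were lower on average with Tet2 siRNA. Pilra, the inhibitory member, had 292, 550 and 434 normalised reads in siScr_Ctrl, 433, 1271 and 1230 in siScr_LPS, 204, 256 and 297 in siTet2_Ctrl, and 875 and 1108 in siTet2_LPS. Replicate 1 of siScr_LPS lay inside the untreated range, while both siTet2_LPS libraries were above all siTet2_Ctrl ones. Pilra rose by 1.04 with LPS in control cells (SE 0.35, adjusted p = 0.0453) and by 1.85 in Tet2 siRNA cells (SE 0.39, adjusted p = 0.00592), from a mean of 252 ± 46.5 to 991 ± 164 in the latter. Without replicate 1 of siScr_LPS the control value was 1.53 (adjusted p = 0.000953), and apart from that fit the control call held only without replicate 2 of siScr_Ctrl among the fits that left out 1 library. The Tet2 siRNA call of Pilra ended without replicate 3 of siTet2_LPS (1.69, adjusted p = 0.0785). The siRNA differences of Pilra were -0.66 (SE 0.35, adjusted p = 0.482) without LPS and 0.15 (SE 0.39, adjusted p = 0.871) after it, the latter with a 95% interval from -0.69 to 0.99.

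Pilrb1, an activating partner of Pilra, had 129, 102 and 82.6 normalised reads in siScr_Ctrl, 254, 374 and 332 in siScr_LPS, 37.9, 27.0 and 39.8 in siTet2_Ctrl, and 202 and 285 in siTet2_LPS. Pilrb2, the second activating gene, had 66.0, 76.2 and 65.0 in siScr_Ctrl, 147, 226 and 209 in siScr_LPS, 21.5, 34.2 and 16.7 in siTet2_Ctrl, and 128 and 153 in siTet2_LPS. For both genes, every LPS-treated library was above every untreated library, and every siTet2_Ctrl library was below every siScr_Ctrl library. LPS raised Pilrb1 by 1.38 in control cells (SE 0.21, adjusted p = 0.000308) and by 2.11 in Tet2 siRNA cells (SE 0.23, adjusted p = 4.54e-05), which is 3.06-fold and 6.97-fold between group means. For Pilrb2 the rise was 1.17 (SE 0.20, adjusted p = 0.000861) and 1.75 (SE 0.23, adjusted p = 0.00016), or 2.81-fold and 5.80-fold. These 4 calls held in each of the 21 other settings tried. Without LPS, the siTet2_Ctrl mean was 33.4% of the control mean for Pilrb1 and 35% for Pilrb2. The fitted siRNA differences there were -1.09 (SE 0.21) for Pilrb1 and -0.96 (SE 0.20) for Pilrb2, 5th and 11th by p of 12486 genes, and neither passed (adjusted p = 0.335 for both).

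After LPS the siRNA groups overlapped for both activating PILR genes, at -0.36 (SE 0.23, adjusted p = 0.459) for Pilrb1 and -0.38 (SE 0.23, adjusted p = 0.406) for Pilrb2. Averaged over both treatments, Pilrb1 fell by 0.72 (SE 0.16, adjusted p = 0.0285) and Pilrb2 fell by 0.67 (SE 0.15, adjusted p = 0.0306). The test of the difference between both LPS responses gave 0.73 for Pilrb1 (SE 0.31, unadjusted p = 0.0365, adjusted p = 0.9997) and 0.58 for Pilrb2 (SE 0.30, unadjusted p = 0.0797), so a larger response in Tet2 siRNA cells did not pass. The average call of Pilrb1 ended without replicate 1 or 2 of siScr_Ctrl, 2 of siScr_LPS, 2 or 3 of siTet2_Ctrl, or 2 of siTet2_LPS, and that of Pilrb2 without replicate 1, 2 or 3 of siScr_Ctrl, 2 of siScr_LPS, 3 of siTet2_Ctrl, or 2 of siTet2_LPS. These genes had few reads, between 15 and 55 for Pilrb1 and between 19 and 25 for Pilrb2 in the siTet2_Ctrl libraries. Their longest protein-coding transcripts shared 28.2% of 50-base stretches, and 6.03% of those of Pilrb1 occurred in that of Pilra. Reads may thus have been split or dropped between these genes.

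With control siRNA, Cd47 rose after LPS, while its receptor Sirpa passed in no comparison. Sirpa had 18639, 20729 and 18262 normalised reads in siScr_Ctrl, 13182, 17699 and 19175 in siScr_LPS, 17596, 13510 and 16096 in siTet2_Ctrl, and 12585 and 16827 in siTet2_LPS. The untreated groups did not overlap for Sirpa, and the LPS-treated groups did. Its siRNA difference was -0.29 without LPS (SE 0.19, adjusted p = 0.543) and -0.18 after it (SE 0.21, adjusted p = 0.701), and its LPS differences were -0.22 (95% interval -0.63 to 0.19) and -0.10 (-0.56 to 0.35). Cd47 had 1905, 1406 and 1585 normalised reads in siScr_Ctrl, 2807, 3253 and 2329 in siScr_LPS, 1516, 807 and 1139 in siTet2_Ctrl, and 1505 and 2027 in siTet2_LPS. All siScr_LPS libraries were above all others, and both siTet2_LPS libraries lay within or above the range of the untreated controls. The rise of Cd47 in control cells was 0.76 (SE 0.22, adjusted p = 0.0259), a ratio of means of 1.71. In Tet2 siRNA cells its LPS difference was 0.63 (SE 0.25, adjusted p = 0.147), and the test of the difference gave -0.13 (SE 0.34, adjusted p = 0.9997). Tet2 siRNA differences of Cd47 were -0.52 (SE 0.22, adjusted p = 0.445) without LPS, -0.66 (SE 0.25, adjusted p = 0.22) after it and -0.59 on average (SE 0.17, adjusted p = 0.0616). The LPS call of Cd47 ended without replicate 2 or 3 of siScr_Ctrl or replicate 1 or 2 of siScr_LPS, with adjusted p up to 0.101.

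**Figure D2:**
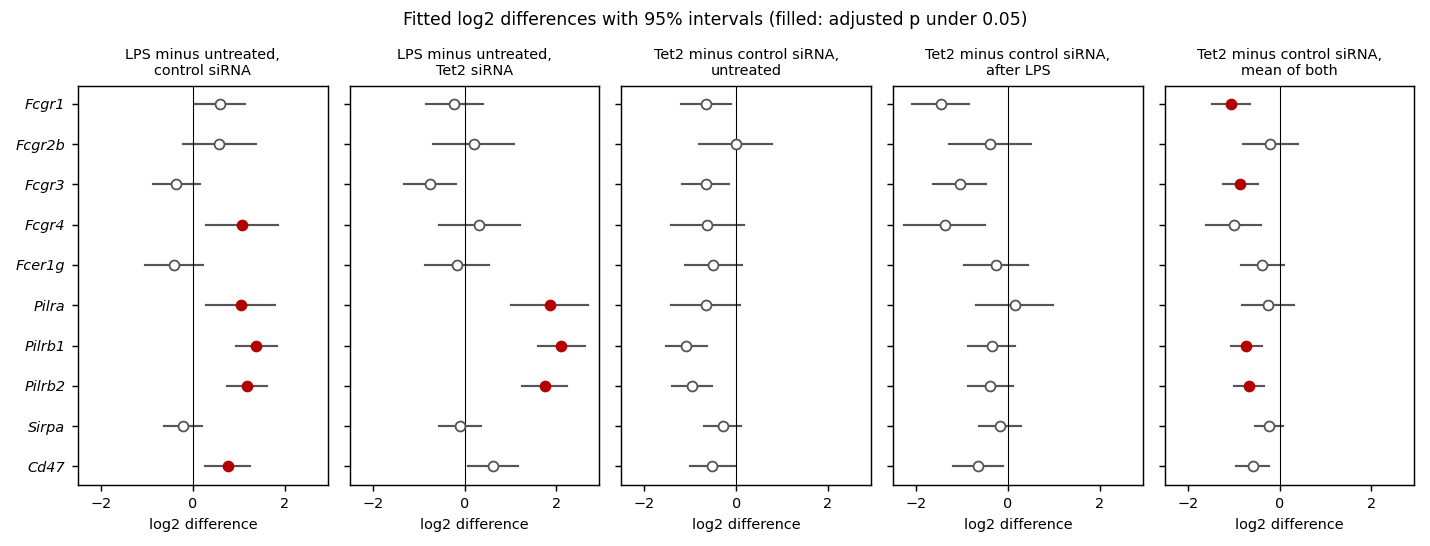
Fitted log2 differences (horizontal axes) of the 10 genes with 95% intervals as lines, in 5 comparisons, with filled points where the adjusted p was under 0.05. Filled points lie right of 0 with LPS for 5 genes with control siRNA and 3 with Tet2 siRNA, and left of 0 for 4 genes in the average siRNA effect.

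LPS in control siRNA cells, the response to LPS with non-targeting siRNA, thus raised 5 of the 10 members, Fcgr4, Pilra, Pilrb1, Pilrb2 and Cd47, and lowered 0. Among all 12486 genes, 13.2% were called higher and 10.4% lower. The groups did not overlap, with LPS higher, for 4 members, against 19.2% of all genes. The median difference of the members was 0.68 and that of all genes -0.02. The count was 3 without replicate 1 or 2 of siScr_Ctrl, replicate 1 of siScr_LPS, replicate 3 of siTet2_Ctrl, or replicate 2 or 3 of siTet2_LPS. It was 2 without replicate 3 of siScr_Ctrl or replicate 2 of siScr_LPS. With quantile normalisation it was also 5, but of other genes: Pilrb1 and Pilrb2 remained higher, while Fcgr3 (-0.81), Fcer1g (-0.82) and Sirpa (-0.75) were called lower and Fcgr4, Pilra and Cd47 were not called. Library weights also called Fcgr3 lower (-0.58, limma adjusted p = 0.0319) and did not call Fcgr4 (limma adjusted p = 0.0874).

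With Tet2 siRNA, LPS raised 3 of the 10 members, Pilra, Pilrb1 and Pilrb2, and lowered 0, against 7.14% of all genes called higher and 4.77% lower. The call of Pilra was lost without replicate 3 of siTet2_LPS (limma adjusted p = 0.0785) and with no filter (adjusted p = 0.089). Fcgr3 was called lower with quantile normalisation (-0.94, adjusted p = 0.0207), with library weights (-0.75, adjusted p = 0.011) and without the libraries with the fewest reads (-0.91, adjusted p = 0.0345). Pilra, Pilrb1 and Pilrb2 were also the 3 members whose LPS-treated libraries were all higher, against 21.9% of all genes, and Fcgr3 was the only member with all of them lower, against 21.3%. The members' median was 0.26. This comparison has 2 LPS-treated libraries and shares no library with the LPS comparison in control cells. Both take their spread from the same fit over all 11 libraries, so their p-values are not independent. In the test of the difference between both LPS responses, 0 of the 10 members and 0% of all genes passed (limma). At an unadjusted p under 0.05 there was 1 member, Pilrb1, against 2.25% of all genes, and voom on recovered reads also called 0 members.

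Tet2 siRNA without LPS gave negative fitted differences for all 10 members, against 53.1% of all genes, and 0 of them passed (limma, 0.00801% of all genes called). At an unadjusted p under 0.05, 5 members were lower, Fcgr1, Fcgr3, Pilrb1, Pilrb2 and Cd47, against 5.93% of all genes. The groups were apart for 5, Fcgr1, Fcer1g, Pilrb1, Pilrb2 and Sirpa, against 9.82%. The members' median was -0.64 and that of all genes -0.03. Voom called 0 members, and a fit with library weights called 4, Fcgr3, Fcer1g, Pilrb1 and Pilrb2. In that fit Pilrb2 was at -1.24 (adjusted p = 0.000493) and Pilrb1 at -1.02 (adjusted p = 0.00129).

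Tet2 siRNA after LPS, the comparison nearest the subject of the series, gave negative differences for 9 members, against 52.7% of all genes, with Pilra the exception. None passed (limma, 0 of 10 members and 0% of all genes), and voom called 0 members. At an unadjusted p under 0.05, 4 members were lower, Fcgr1, Fcgr3, Fcgr4 and Cd47, against 10.2% of all genes, and the same 4 did not overlap, against 21% of all genes. The members' median was -0.38 and that of all genes -0.02. Fcgr1 was the only member apart from the controls both without and after LPS, a pattern met by 5.41% of all genes. Without replicate 3 of siScr_LPS, Fcgr1 was called (adjusted p = 0.0325).

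Averaged over both treatments, Tet2 siRNA lowered 4 of the 10 members, Fcgr1, Fcgr3, Pilrb1 and Pilrb2, and raised 0, against 2.88% of all genes called lower and 2.28% higher. All 10 fitted values were below 0, against 53.7% of all genes, and the median was -0.63 against -0.03. This average uses the same libraries as both separate siRNA comparisons and is no further evidence beside them. The count was 2 without replicate 1 or 2 of siScr_Ctrl or replicate 2 of siTet2_Ctrl, 1 without replicate 3 of siTet2_Ctrl, and 0 without replicate 2 of siScr_LPS or replicate 2 of siTet2_LPS. It was also 0 when the 2 libraries with the fewest reads were left out together. The microglial markers moved with it, as given above.

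Receptor balance was read within each library as the log2 value of 1 gene minus that of its partner, over 5 pairs and 4 comparisons, 20 exact permutation tests in all. With these groups the smallest two-sided p is 0.1, so none could pass, and the smallest adjusted p was 0.4. The activating Fcgr3 minus the inhibitory Fcgr2b was 1.45, 2.0 and 2.10 in siScr_Ctrl, 1.19, 1.26 and 0.29 in siScr_LPS, 1.05, 1.6 and 0.93 in siTet2_Ctrl, and 0.55 and -0.05 in siTet2_LPS. LPS-treated libraries lay below untreated ones with either siRNA, with changes of -0.93 and -0.95 (exact permutation p = 0.1 for each). Cd47 minus Sirpa was -3.27, -3.85 and -3.50 in siScr_Ctrl, -2.22, -2.43 and -3.02 in siScr_LPS, -3.51, -4.01 and -3.78 in siTet2_Ctrl, and -3.04 and -3.03 in siTet2_LPS. Here LPS-treated libraries lay above untreated ones, by 0.98 with control siRNA and 0.73 with Tet2 siRNA (exact permutation p = 0.1 for each). After LPS, siTet2_LPS lay just below siScr_LPS in Cd47 minus Sirpa (exact permutation p = 0.2).

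Fcgr4 minus Fcgr2b was lower in siTet2_Ctrl, at -2.52 to -2.32, than in siScr_Ctrl, at -1.94 to -1.65 (exact permutation p = 0.1). Fcgr1 minus Fcgr2b overlapped in all 4 comparisons, with siScr_LPS spread from -2.40 to -0.85. Pilrb1 minus Pilra was -1.80 to -0.70 in siScr_LPS and -1.96 to -1.85 in siTet2_LPS, which did not overlap (exact permutation p = 0.4), and overlapped in the other comparisons. In all, 7 of the 20 pairs of groups did not overlap. The share among other gene pairs was not computed, and the pairs tested share libraries and Fcgr2b. That count takes pairs apart in either direction, whereas the shares of single genes given here are each for 1 direction. Among single genes, 19.2% were apart with LPS higher with control siRNA. With Tet2 siRNA, 21.9% were apart with LPS higher and 21.3% with LPS lower. Tet2 siRNA was lower without overlap for 9.82% without LPS and 21% after it. These shares are thus no like measure for the 7 of 20. Leaving out a library can only keep or raise the number apart, so it is no test of it.

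**Figure D3:**
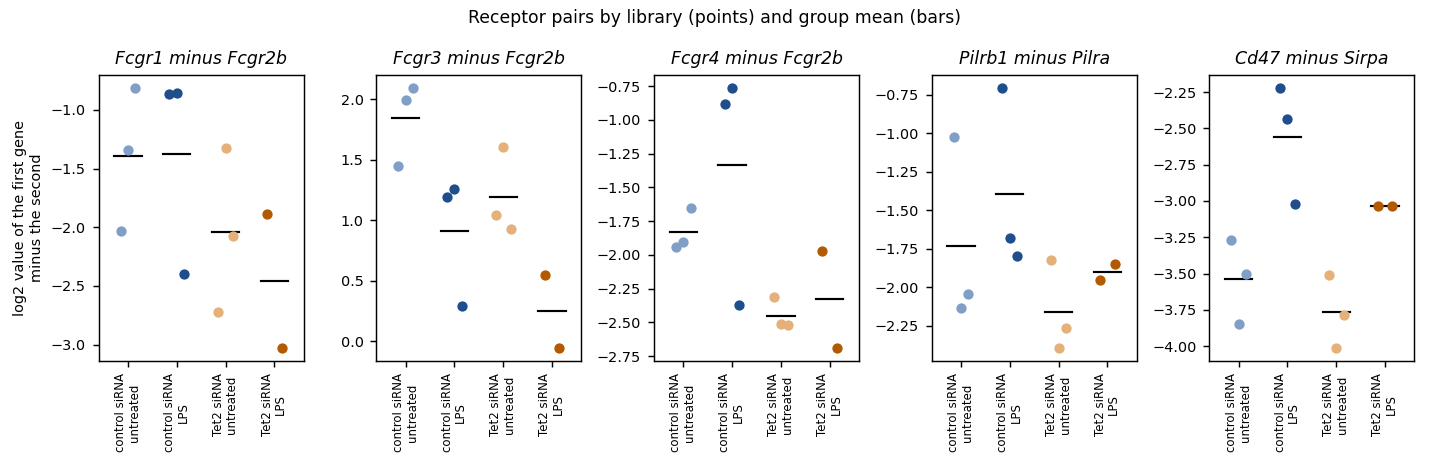
Log2 value of the first gene minus that of the second (vertical axes, each with its own scale) in the 11 libraries for 5 receptor pairs. Points are libraries and bars are group means. Fcgr3 minus Fcgr2b is lower and Cd47 minus Sirpa higher in the LPS-treated libraries of either siRNA.

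The members did not vary as 1 block over the 11 libraries, which differ in siRNA, LPS and depth, so the following correlations are descriptions. Pilrb1 and Pilrb2 were the closest pair (Pearson r = 0.969 over 11 libraries), and Pilra had 0.874 with Pilrb1 and 0.893 with Pilrb2. Fcgr4 and Cd47 had r = 0.930, Fcer1g and Sirpa 0.928, and Fcgr1 and Fcgr4 0.799, while Fcer1g and Pilrb2 had 0.0204. The lowest values among the members were those of Fcgr3 with Pilra (-0.193), Pilrb2 (-0.0585) and Pilrb1 (-0.0401). Of all tested genes, the closest to Fcgr1 were Heatr5a (r = 0.929) and Aif1 (0.912), the latter a microglial marker. Fcgr3 was closest to Plxnc1 (0.967) and Atp6v1b2 (0.962), Fcgr4 to P2rx4 (0.953) and Naip6 (0.953), and Fcgr2b to Xist (0.959) and Rgs1 (0.948). Fcer1g was closest to Gmppa (0.972) and Ifitm2 (0.949), and Sirpa to Gmppa (0.941) and Gpr34 (0.936). Pilra was closest to Gm17446 (0.981) and Vma21 (0.966), Pilrb1 to Cd38 (0.976) and Lpcat2 (0.973), Pilrb2 to Pilrb1 (0.969) and Dram1 (0.964), and Cd47 to Stat3 (0.9752) and H2-K1 (0.973).

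Of 39 signalling genes downstream of Fc gamma receptors, 38 were tested. LPS raised 15 of the 38 and lowered 4 in control siRNA cells, against 13.2% of all genes called higher and 10.4% lower, with a median of 0.04, so that the number lowered was near the share of all genes. Src, a kinase that can phosphorylate activation motifs, rose by 2.83 (SE 0.29), the phosphatase Ptprj by 2.82 (SE 0.17), the kinase Syk, listed as Sykb, by 1.98 (SE 0.21), and Pik3r5, a phosphoinositide 3-kinase subunit, by 1.71 (SE 0.16). In Tet2 siRNA cells LPS raised 8 and lowered 6, against 7.14% and 4.77% of all genes, among them Ptprj at 2.42 and Src at 2.70 higher and the kinase Tec at -1.26. Tet2 siRNA alone gave 0 calls in either treatment, with Pik3r1 first by p after LPS (-0.89, adjusted p = 0.122). On average it lowered 6 and raised 0, against 2.88% and 2.28% of all genes, with a median of -0.18. Src was at -1.04 (SE 0.22, adjusted p = 0.0262), the adaptor Lat2 at -0.73 (SE 0.15, adjusted p = 0.0271) and the phosphoinositide 3-kinase subunit Pik3r1 at -0.61 (SE 0.13, adjusted p = 0.0271).

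Of 13 adaptors and other Fc receptors only 6 were tested, the others having almost no reads. Trim21, a cytosolic antibody receptor with ubiquitin ligase activity, rose with LPS by 4.01 (SE 0.24) in control cells and by 2.86 (SE 0.27) in Tet2 siRNA cells, the 1 call of 6 in each, against 13.2% and 7.14% of all genes called higher. The median of these 6 genes was 0.13 with LPS in control cells and -0.62 in the average siRNA effect. Tyrobp, the adaptor of the Pilrb proteins, had mean normalised reads of 6128 in siScr_Ctrl, 5737 in siScr_LPS, 3802 in siTet2_Ctrl and 3387 in siTet2_LPS. On average Tyrobp fell by 0.75 with Tet2 siRNA (SE 0.17, adjusted p = 0.0306), and Fcrls, a microglial Fc receptor-like gene that is also in the marker list, by 1.02 (SE 0.25, adjusted p = 0.0403). Without LPS Fcrls was first by p (-1.11, adjusted p = 0.351), and after LPS Trim21 was (-1.06, adjusted p = 0.122), neither of which passed. Of 7 ligands of the members besides Cd47, 3 were tested and Pianp, a PILR ligand listed as C530028O21Rik, fell with LPS in control cells (-1.02, SE 0.28, adjusted p = 0.0191). No ligand passed in the siRNA comparisons or with LPS in Tet2 siRNA cells.

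Of 39 other paired and inhibitory myeloid receptors, 37 were in the table and 33 were tested. LPS raised 10 of the 33 and lowered 4 in control cells (median 0.10), against 13.2% of all genes called higher and 10.4% lower, so that the number lowered was near the share of all genes. The genes with the smallest p were Clec4e, a receptor that signals through Fcer1g, at 4.36 (SE 0.35), Treml4 at 2.66 (SE 0.21), Clec4a1 at 2.27 (SE 0.21) and Gp49a at 1.83 (SE 0.25), whose reads may be shared with the closely related Lilrb4. In Tet2 siRNA cells it raised 9 and lowered 3, against 7.14% and 4.77% of all genes, with Clec4e at 4.18, Treml4 at 3.20, Clec4a1 at 2.11 and Cd200r1, an inhibitory receptor, at -2.57. The siRNA gave 0 calls in either treatment, with Siglec1 first by p at -1.12 (adjusted p = 0.335) without LPS and -1.34 (adjusted p = 0.122) after it. On average 7 were lower and 1, Treml4, higher (median -0.44), against 2.88% and 2.28% of all genes. Siglec1, a sialic acid receptor of macrophages, fell by 1.23 (SE 0.18, adjusted p = 0.0124), the beta-glucan receptor Clec7a by 1.13 (SE 0.21, adjusted p = 0.0226), the inhibitory Cd33 by 0.97 (SE 0.20, adjusted p = 0.0252) and Cd300lf by 0.91 (SE 0.20, adjusted p = 0.0289).

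**Figure D4:**
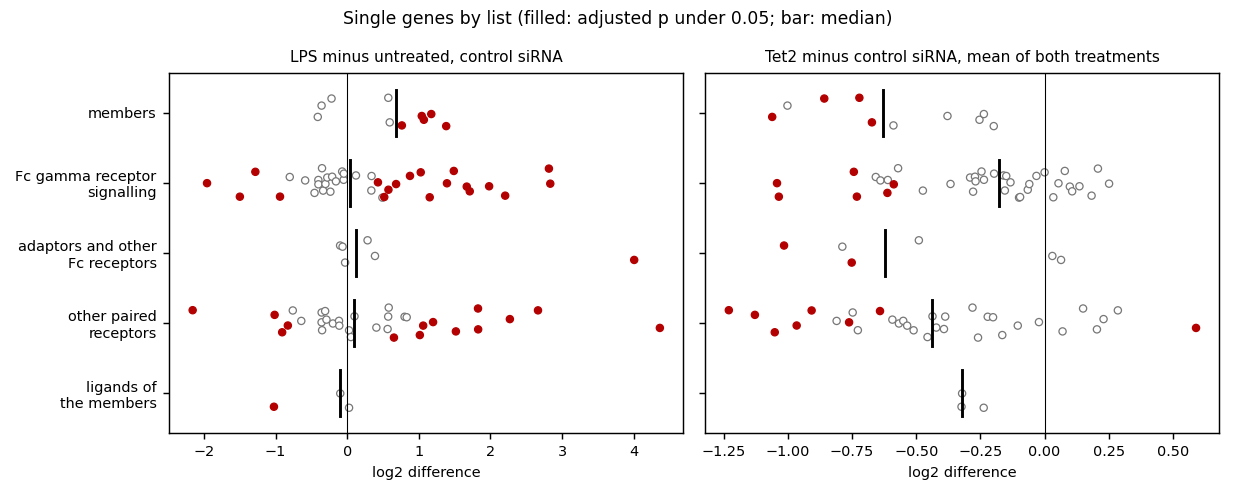
Fitted log2 differences (horizontal axes) of single genes in the members and the 4 other lists, for LPS with control siRNA (left) and for the average Tet2 siRNA effect (right). Filled points had an adjusted p under 0.05 and bars are list medians. The members' median is 0.68 on the left and -0.63 on the right.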

How the data were processed

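Polyadenylated RNA of 11 BV2 libraries was sequenced after directional library preparation, per the labels' protocols. Genome build mm9, TopHat2 2.0.9, Trim Galore 0.3.3 and DESeq2 were used, per the submitters' processing notes. Annotation, read counter and its use of strand were not given in the sources used here. The deposited table holds variance-stabilised log2 values made by the authors, per the file headers, with a lowest value of 4.02 that stands for 0 reads. Inverted, 100% of the values came to whole reads within 0.01 read, and these gave the normalised reads.

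Differences were tested with limma 3.58.1 (R 4.3.3) on the deposited log2 values, with 1 mean per group over all 11 libraries, a variance trend and Benjamini-Hochberg adjustment over 12486 genes with at least 2 libraries 1 log2 unit above the lowest value. Genes with an adjusted p under 0.05 were called. Receptor pairs were compared by two-sided exact permutation. All 10 members were named, with Tet2, up to 4 called genes of each list with the smallest p (the first by p where none was called), and the 2 genes that correlate best with each member. Some genes that this rule or the marker lists would name are not reported here. Other settings were no filter, a stricter filter (9964 genes), quantile normalisation, median centring, no variance trend, only the groups compared, a replicate block, library weights, voom on recovered reads, leaving out each library in turn and, chosen after the data had been seen, leaving out the 2 libraries with the fewest reads. The code was checked on simulated data. Members and lists were chosen with earlier results of these data known. In the table, 25 symbols had become dates and are not named.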

Additional observations from a re-analysis of the deposited data

How the results depend on the processing

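Of the 12 members' calls over all comparisons, 4 held in all 21 settings, those of Pilrb1 and Pilrb2 with LPS, and 0 reversed. The number of members called with LPS in control siRNA cells, 5, was 2 with no filter, 3 without the libraries with the fewest reads and between 2 and 5 when 1 library was left out. With LPS in Tet2 siRNA cells it was 3, against 5 with library weights (Fcgr3 lower and Cd47 higher added), 4 with quantile normalisation or without the libraries with the fewest reads (Fcgr3 lower added), 2 with no filter (Pilra lost) and between 2 and 4 with 1 library left out (Pilra lost without siTet2_LPS replicate 3, Cd47 added without siTet2_Ctrl replicate 1). For Tet2 siRNA without LPS it was 0, and 4 with library weights. For Tet2 siRNA after LPS it was 0, and between 0 and 1 with 1 library left out. For the average siRNA effect it was 4, against 0 with no filter, 8 with library weights, 0 without the libraries with the fewest reads and between 0 and 6 with 1 library left out. The number of receptor pairs whose groups were apart was 7, and leaving out 1 library can only keep or raise it. The causes were not tested.

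The numbers shared by replicates were not shown to pair libraries, with correlations of same-numbered deviations from -0.283 to 0.633. With the replicate block, the counts of members called were 5, 3, 0, 0, 0 and 4, as without it, and Pilra after LPS was -0.13 in place of 0.15.

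Reversed signs were all in values that were not called. For LPS in Tet2 siRNA cells, Fcgr2b (0.20) was -0.052 with library weights and -0.17 without the libraries with the fewest reads, and Fcgr4 (0.32) was -0.076 without those libraries. For Tet2 siRNA without LPS, Fcgr2b (-0.01) was 0.003 with median centring, 0.054 with library weights and 0.054 without the libraries with the fewest reads. For Tet2 siRNA after LPS, Pilra was -0.21 with library weights and Sirpa (-0.18) was 0.056 with quantile normalisation. For the difference between LPS responses, library weights gave Fcer1g -0.0013 and Sirpa -0.0054, and quantile normalisation gave Cd47 0.007. With 1 library left out, LPS in Tet2 siRNA cells ranged from -0.33 to 0.73 for Fcgr2b, -0.08 to 0.62 for Fcgr4, -0.401 to 0.063 for Fcer1g and -0.31 to 0.11 for Sirpa. Tet2 siRNA without LPS ranged from -0.31 to 0.35 for Fcgr2b. After LPS the siRNA difference ranged from -0.91 to 0.14 for Fcgr2b, -0.65 to 0.016 for Fcer1g, -0.33 to 0.41 for Pilra and -0.39 to 0.030 for Sirpa. The difference between LPS responses ranged from -0.903 to 0.15 for Fcgr2b, -0.15 to 0.52 for Fcer1g, -0.094 to 0.32 for Sirpa and -0.36 to 0.080 for Cd47. The average siRNA effect ranged from -0.46 to 0.066 for Fcgr2b.

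Where a left-out library leaves siTet2_LPS with 1, that library is assumed to vary like the other groups. The fit of only the groups compared could not be made for the average or for the difference between LPS responses, which use all 4 groups. The estimate of library weights stopped before it converged.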
